A study of Bos taurus with 9 samples.

Results

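Articular chondrocytes that had spent 28 days in culture were compared with undifferentiated mesenchymal stem cells (MSCs, stromal cells of the marrow that can be turned into cartilage, bone or fat cells) of the same calves, on 6 of the study's 9 bovine expression arrays. The 6 arrays were chosen by their labels alone, and 24016 probe sets were compared, of which 13292 carried a single gene symbol, for 9155 named genes. Both cell types came from 3 juvenile calves (3 to 6 months), numbered as donors 1, 2 and 3, and each group held 1 array per donor. The chondrocytes were put into agarose, a gel in which cells stay round and separate, directly after isolation from articular cartilage, and were kept for 28 days in a defined medium with 10 ng/mL TGF-beta3, a growth factor that induces cartilage formation. The MSCs were put into the same gel and harvested at once, at day 0. The other 3 arrays held MSCs of these calves after 28 days in the gel and the same medium, and their levels are given for orientation. Cell source, time in the gel and exposure to TGF-beta3 all differed between the groups, and none of the 9 arrays held chondrocytes at day 0 or cells cultured without the factor, so that these influences cannot be told apart. The growth of the MSCs before embedding is not given in the sources used here. The RNA came from whole cultures, in which fewer cells of a type and less RNA per cell cannot be told apart.

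Articular cartilage holds few cells in a large matrix that these cells make themselves. Type II collagen, with types IX and XI, forms its fibrils. Aggrecan, a proteoglycan bound along hyaluronan and fastened by link protein, draws in water and gives the tissue its stiffness, and adaptor proteins join the networks. Stromal cells of the marrow are known for a fibrous matrix, for actin-based contraction when grown on plastic, and for chemokines that guide and hold blood cells.

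Levels are the deposited log2 values, on which a difference of 1 is a doubling. Differences are chondrocytes minus day 0 MSCs, ± the standard error of the limma model, with n = 3 arrays per group throughout, and a gene was called at a Benjamini-Hochberg adjusted p under 0.05. Of 9155 genes 3299 (36.0%) were called, 1384 (15.1%) higher and 1915 (20.9%) lower in chondrocytes. These shares of 15.1% and 20.9% are the background for the counts of each gene list. Among probe sets 7445 (31.0%) were called, with 3622 (15.1%) higher and 3823 (15.9%) lower. The split moved with the scaling between arrays: with each array set to its ribosomal protein genes 5215 were higher and 2217 lower, at a median shift of 0.25, and with each array set to its own median 3110 were higher and 5255 lower, at a shift of -0.12. The median difference over all genes was -0.12, and in 4938 genes (53.9%) the 2 groups of 3 arrays did not overlap. Large differences were mostly rises, with 90 genes called higher and 30 called lower by 4 or more. Hybridisation controls were low on chondrocyte replicate 3, where bioC averaged 8.43, and higher, up to 11.36, on the other 5 arrays compared. The 3′ minus 5′ signal of 5 control transcripts averaged 1.87 ± 0.24 (SD, n = 3) on chondrocyte arrays and 1.24 ± 0.30 on day 0 MSC arrays, and its part in the results was not tested.

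**Figure D1:**
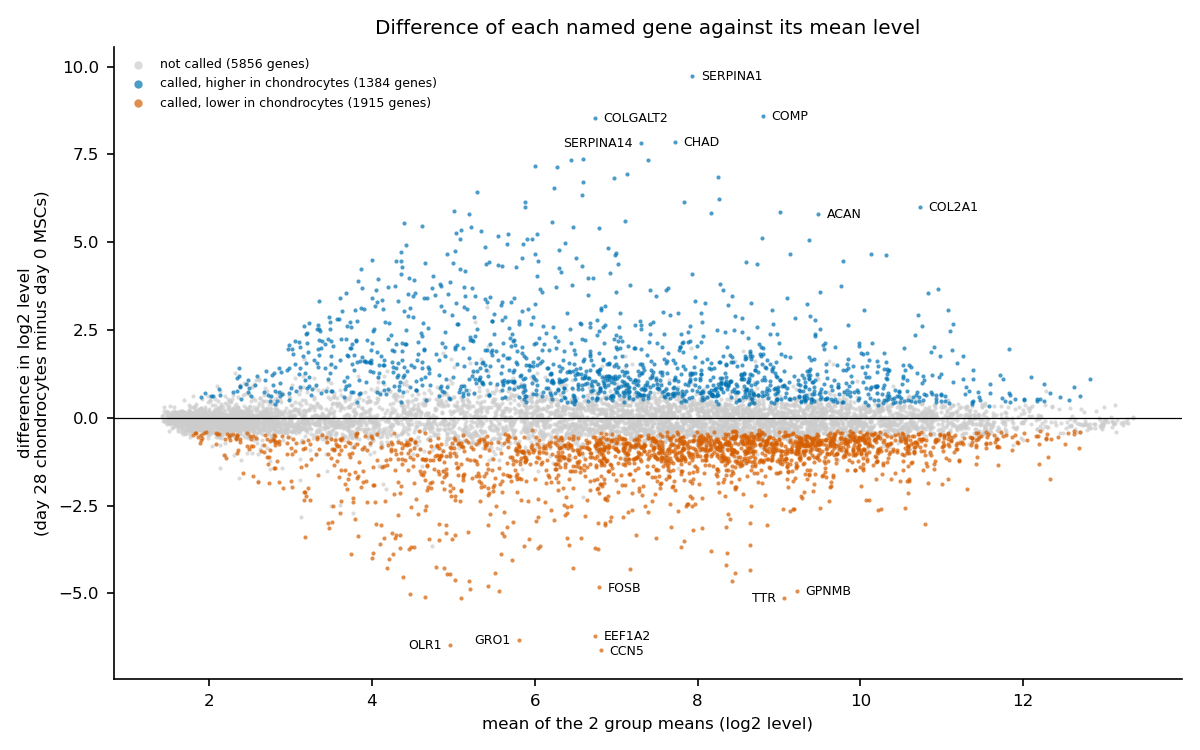
Difference in log2 level (day 28 chondrocytes minus day 0 MSCs) of each of 9155 genes, plotted against the mean of the 2 group means. Each point is a gene, coloured by whether limma called it at an adjusted p under 0.05. SERPINA1 (9.74) and COMP (8.60) lie highest and CCN5 (-6.62) and OLR1 (-6.46) lowest.

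The 12 largest rises among genes with the same direction in all donors were SERPINA1, COMP, COLGALT2, CHAD, SERPINA14, SMOC2, THBS4, AGT, RFLNA, FRZB, ZNF385B and DPT. Their means in day 0 MSCs lay between 2.41 and 4.83, where the median probe set averaged 4.99, and their means in chondrocytes lay between 9.59 and 13.10. SERPINA1, a secreted inhibitor of serine proteases, stood at 2.93, 3.20 and 3.07 in the MSCs of donors 1, 2 and 3 and at 12.83, 12.74 and 12.85 in their chondrocytes. The difference of 9.74 ± 0.13 is 856-fold (adjusted p = 1.04e-09) and was the largest of all called genes. SERPINA14, another member of that family, stood at 3.38, 3.59 and 3.22 in MSCs and at 11.68, 11.03 and 10.95 in chondrocytes (7.83 ± 0.35, adjusted p = 1.38e-06). The values of each of these serpins were close together within a group and far apart between groups. In MSCs cultured for 28 days SERPINA1 averaged 11.54, and SERPINA14 averaged 3.43.

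Cartilage matrix genes were far higher in the chondrocytes. All 6 called genes of 7 measured cartilage collagens were higher, with a median difference of 2.89 against -0.12 over all genes. COL2A1, the main fibril collagen, measured 7.85, 6.89 and 8.44 in the MSCs and 13.63, 13.60 and 13.96 in the chondrocytes. The difference was 6.00 ± 0.33 (64-fold, adjusted p = 3.84e-06), and the groups were far from overlapping. COL2A1 ranked 1 of all probe sets on each chondrocyte array, at the top of the scale. Its 3 other probe sets were also called, at 5.63, 4.40 and 1.39. COL11A2, a chain of the collagen at the core of these fibrils, rose from 3.51, 3.76 and 3.41 to 10.52, 10.19 and 10.45 (6.82 ± 0.19). COL9A1, whose product decorates the fibril surface, rose by 5.10 ± 0.22. The member that was not called, the microfibril collagen chain COL6A2, stood at -0.24 ± 0.22.

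ACAN, the core protein of aggrecan, was at 5.63, 6.63 and 7.50 in MSCs and at 12.37, 12.51 and 12.28 in chondrocytes. It differed by 5.80 ± 0.40 (adjusted p = 1.50e-05), with more spread among the MSC arrays than among the chondrocyte arrays. Among 11 genes of aggrecan and its partners, 4 were higher and 2 lower (median 0.29). That median is the value of PRG4, described below, by its brightest probe set, which was not called. The list median was 0.89 with the mean of the probe sets of each gene and 0.97 with the set of largest SD. HAPLN1, the link protein, was at 7.55, 7.52 and 7.63 against 11.92, 11.84 and 12.30, a difference of 4.45 ± 0.16. TNFAIP6, which remodels hyaluronan complexes, rose by 4.65 ± 0.34. The 2 that fell were VCAN (-1.62 ± 0.25), a large proteoglycan of loose connective tissue, and CD44 (-2.74 ± 0.34), the cell surface receptor for hyaluronan. The hyaluronan synthase HAS2 was not called by its brightest probe set (0.10 ± 0.17), though another of its sets was, at 2.37.

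The adaptor proteins held some of the largest rises, with 7 higher and 1 lower of 12 and a median of 1.03. COMP, a pentamer that binds collagen fibrils, stood at 4.52, 4.56 and 4.43 in MSCs and at 13.19, 13.24 and 12.88 in chondrocytes (8.60 ± 0.18, 388-fold, adjusted p = 2.04e-08). Its second probe set rose by 5.05. CHAD, which links cells to collagen, rose by 7.85 ± 0.23. THBS4, a thrombospondin of tendon and joint tissues, rose from 3.97, 3.31 and 3.87 to 10.95, 11.21 and 11.03 (7.35 ± 0.32), and CNMD, a cartilage protein that keeps vessels out, from 4.16, 4.38 and 4.40 to 9.86, 9.95 and 9.94 (5.60 ± 0.35). THBS2 fell by 1.75, a call that ended without donor 1 or without donor 2. MATN1, a matrilin of growth and tracheal cartilage, was low on all 6 arrays and did not differ by the test (-0.09 ± 0.17).

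**Figure D2:**
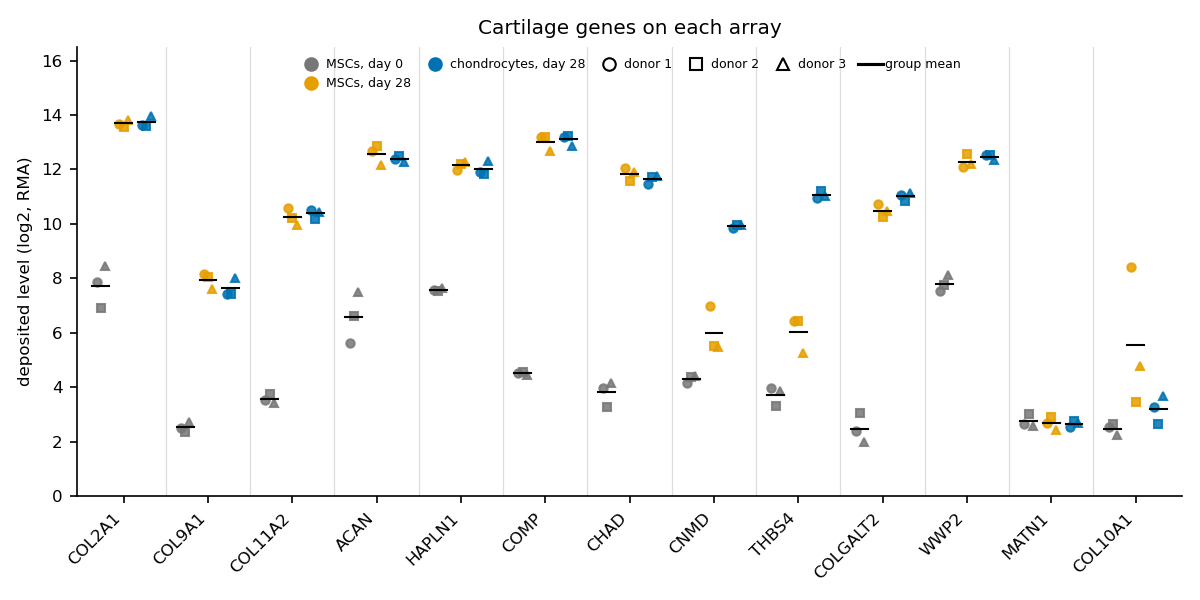
Deposited log2 level of 13 cartilage genes on each of 9 arrays. Colours mark the groups, marker shapes the donors and short lines the group means. COMP in chondrocytes sits between 12.88 and 13.24, above all day 0 MSC arrays, while MATN1 is low in every group and COL10A1 reaches 8.40 on 1 array of day 28 MSCs only.

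PRG4, the lubricant of the joint surface, depended on the probe set. Set 1, the brightest, was at 9.19, 9.42 and 9.32 in MSCs and at 9.31, 9.43 and 10.05 in chondrocytes, and was not called (0.29 ± 0.20, adjusted p = 0.308). Set 4 was at 2.74, 2.75 and 2.10 against 11.51, 11.98 and 10.72, a difference of 8.87 ± 0.44 (adjusted p = 2.37e-06). Sets 2 and 3 gave 6.08 ± 0.26 and 7.31 ± 0.29, so that 3 of the 4 sets separated the groups widely and 1 did not. On those 3 sets the day 28 MSC arrays lay between 2.55 and 5.68, far below the chondrocytes.

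**Figure D3:**
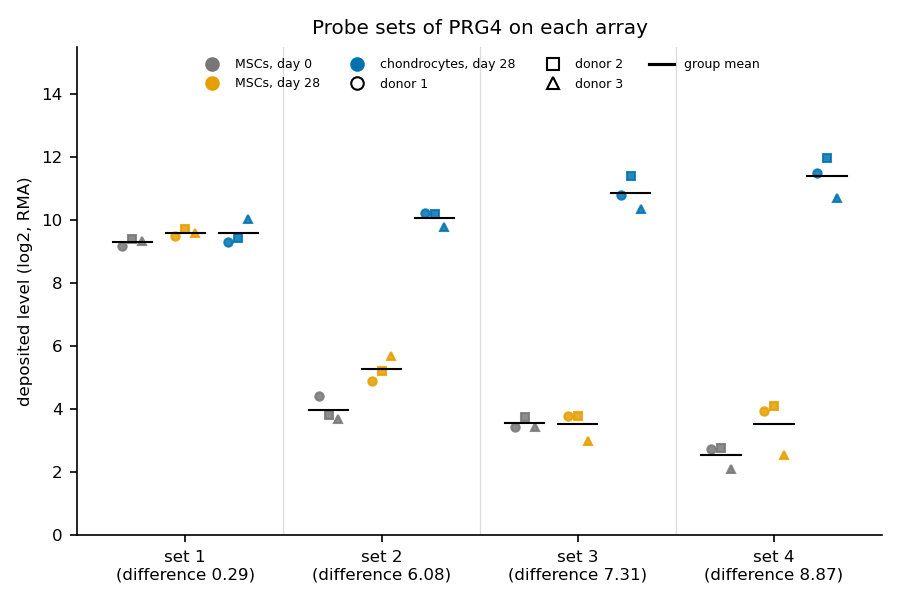
Deposited log2 level of the 4 PRG4 probe sets on each of 9 arrays, in the order of their difference (chondrocytes minus day 0 MSCs). Set 1 has all 9 arrays between 9.19 and 10.05, and in sets 2, 3 and 4 the chondrocyte arrays stand above both MSC groups.

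Of 10 small leucine-rich proteoglycans, which bind collagen and growth factors, 5 were higher and 1 lower (median 0.53). PRELP rose by 2.61 ± 0.24 and BGN by 1.97 ± 0.12, from 10.72, 10.82 and 10.98 to 12.81, 12.80 and 12.81, while ASPN fell by 2.31. DCN, bright in all groups, was not called (0.20 ± 0.14), except after centring on ribosomal protein genes (0.45). Fibrous collagens and their partners split into 4 higher and 1 lower of 14 (median 0.26). COL1A1, of type I collagen, the fibril collagen of bone and tendon, was at 13.09, 13.10 and 13.22 in MSCs and at 12.79, 13.02 and 13.33 in chondrocytes. The groups overlapped, and COL1A1 was not called (-0.09 ± 0.18, adjusted p = 0.765). POSTN, a matricellular protein of periosteum and ligament, went from 2.40, 2.48 and 2.35 to 6.87, 8.22 and 8.21 (5.36 ± 0.55), and COL12A1 rose by 2.02 ± 0.13. Elastic fibre genes were higher in 5 and lower in 1 of 15 cases (median 0.53), with elastin itself, ELN, up by 2.36 ± 0.27. Only 3 of that list were higher without chondrocyte replicate 1, chondrocyte replicate 2 or MSC replicate 1, and the number lower was 0 to 2 without single arrays.

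Enzymes that finish the matrix were counted in 2 lists. Of 18 collagen-modifying enzymes 9 were higher and 1 lower (median 0.59), and the 1 lower was lost without chondrocyte replicates 1 or 3 or MSC replicates 2 or 3. COLGALT2, which adds galactose to collagen, stood at 2.40, 3.06 and 1.98 in MSCs and at 11.07, 10.85 and 11.12 in chondrocytes (8.53 ± 0.26, 371-fold). The prolyl hydroxylase P3H2 rose by 2.66 ± 0.39 and the lysyl hydroxylase PLOD1 by 2.13 ± 0.16, although a second PLOD1 probe set, at -0.38, was not called. Chondroitin sulfate synthesis, which makes the sugar chains of aggrecan, had 5 higher and 1 lower of 13 (median 0.32). PAPSS1, which makes the sulfate donor, rose by 1.59 ± 0.19, and UGDH, which makes a sugar precursor, by 1.14 ± 0.19. That count of 5 dropped to 3 without MSC replicate 1 or MSC replicate 2.

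Regulators of cartilage were measured in part, since SOX9, SOX5 and SOX6 had no named probe set. Of 6 genes listed as chondrogenic regulators 3 were higher (median 1.20): WWP2, a ubiquitin ligase whose gene hosts a cartilage microRNA, by 4.67 ± 0.19, the transcription factor NFIA by 1.86 ± 0.22 and ERG by 1.24 ± 0.23. A second ERG probe set was at -0.13 and not called. WWP2 stood at 7.51, 7.76 and 8.13 in MSCs and at 12.55, 12.52 and 12.35 in chondrocytes. GDF5 and FGFR3, both low on all arrays, did not pass.

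A joint list of hypertrophy and mineralization genes had 7 higher and 2 lower of 14 (median 0.90). Hypertrophy is the enlargement of chondrocytes that comes before bone formation. PTH1R, which receives the hormone PTH and the peptide from PTHLH, rose by 4.55 ± 0.49 and ENPP1, which makes the mineral inhibitor pyrophosphate, by 2.93 ± 0.35. ALPL, the phosphatase that removes pyrophosphate, was at 3.09, 2.53 and 3.25 against 7.82, 6.69 and 8.94 (4.86 ± 0.84). Its second probe set, at 0.36, was not called. PTHLH, which holds back hypertrophy through that receptor, fell by 2.63. COL10A1, the collagen of hypertrophic cartilage, stood at 2.52, 2.63 and 2.26 in MSCs and at 3.26, 2.63 and 3.66 in chondrocytes. It was low in both groups and not called (0.72 ± 1.00, adjusted p = 0.638). MMP13, a collagenase, fell by 2.64, with 4.93, 7.95 and 5.02 in MSCs. That call ended without chondrocyte replicate 1 (-2.51, adjusted p = 0.0839) or replicate 2 (-2.43, adjusted p = 0.0832), and the difference was -1.65 without MSC replicate 2. The count of 7 higher genes dropped to 4 without chondrocyte replicate 1, chondrocyte replicate 3 or MSC replicate 1, and that of 2 lower to 1 without chondrocyte replicate 1 or 2.

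Ligands and response genes of TGF-beta signalling, the pathway of the factor in the medium, were higher in 6 and lower in 3 of 16 cases (median 0.45). TGFBI, a secreted adhesion protein induced by TGF-beta, stood at 7.93, 8.16 and 7.90 in MSCs and at 12.66, 12.81 and 12.45 in chondrocytes (4.65 ± 0.23). PMEPA1, a feedback inhibitor, rose by 2.69 ± 0.31 and the decoy receptor BAMBI by 1.84 ± 0.26. The receptor TGFBR2 rose by 1.83 ± 0.17, although its other probe set, at 0.04, was not called. FST, which binds activins, fell by 1.73. Only 1 gene of that list was lower without chondrocyte replicate 3 or MSC replicate 1.

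In the related BMP branch 3 of 14 genes were higher and 2 lower (median 0.11, or -0.01 when arrays were centred on their median). This count was near the shares over all genes (15.1% higher and 20.9% lower). BMP5 was at 2.79, 2.50 and 3.52 in MSCs and at 6.61, 6.92 and 6.69 in chondrocytes (3.80 ± 0.28). ID1, a direct target of BMP signals, rose by 4.03 ± 0.50, and BMP4 fell by 1.86. The receptor BMPR1A stood at -0.00 ± 0.14 and was not called.

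Among 15 Wnt genes and antagonists 5 were higher and 2 lower (median 0.56). FRZB, a secreted antagonist made by articular cartilage, was at 3.15, 2.77 and 2.19 against 9.93, 9.90 and 9.68 (7.13 ± 0.45, 140-fold). The antagonist DKK1 rose by 4.39 ± 0.48, and LEF1, a transcription factor at the end of the pathway, by 5.10 ± 0.52. FZD1, a Wnt receptor, fell by 1.48. The IGF and FGF axes held 6 higher and 8 lower of 21 (median -0.18, or 0.07 when centred on ribosomal protein genes). Binding proteins of IGF moved apart: IGFBP5 rose by 5.07 ± 0.42, and IGFBP4 fell by 3.50, from 9.72, 9.36 and 9.66 to 5.80, 6.32 and 6.11. FGF2 rose by 3.64 ± 0.23.

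The 12 largest falls were in CCN5, OLR1, GRO1, EEF1A2, TTR, ANXA3, FCGR1A, CXCL5, CXCL12, GPNMB, PTGER4 and FOSB. CCN5, a matricellular protein of smooth muscle and stroma, stood at 10.39, 10.50 and 9.49 in MSCs and at 4.08, 3.90 and 2.52 in chondrocytes (-6.62 ± 0.46, adjusted p = 1.47e-05). OLR1, a scavenger receptor for oxidised lipoprotein, was at 8.78, 7.61 and 8.19 against 1.79, 1.76 and 1.64 (-6.46 ± 0.26). EEF1A2, an elongation factor isoform usually found in muscle and nerve, was at 8.56, 10.41 and 10.55 against 3.23, 3.53 and 4.15 (-6.20 ± 0.49). Each of these separated the groups by several log2 units. GPNMB, a membrane glycoprotein of stromal cells and macrophages, fell by 4.94 and PTGER4, a prostaglandin E receptor, by 4.88.

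Of 22 chemokines and interleukins 10 were called lower and 1 higher in chondrocytes, with a median of -1.09 against -0.12 over all genes. GRO1, which attracts neutrophils, was at 10.17, 9.84 and 6.91 in the MSCs and at 2.42, 3.14 and 2.36 in the chondrocytes (-6.33 ± 0.73, adjusted p = 0.00025). CXCL5 was at 7.94, 7.84 and 5.13 against 1.99, 2.19 and 1.71 (-5.01 ± 0.63). For both of these the MSCs of donor 3 were about 3 log2 units below those of donors 1 and 2, yet above every chondrocyte array. CXCL8, picked after its values were seen, was at 5.50, 7.20 and 2.19 in MSCs and at 2.01, 2.13 and 1.76 in chondrocytes, so that donor 3 MSCs lay next to the chondrocytes. Its call (-2.99, adjusted p = 0.0455) ended when any array but MSC replicate 3 was left out, and the difference was -1.87 without MSC replicate 2. CXCL12, which holds blood progenitors in the marrow, did not show that pattern, at 7.51, 8.72 and 7.86 against 3.43, 2.93 and 2.93 (-4.94 ± 0.56). CXCL14 was the single rise, by 6.02 ± 0.49. IL6 was not called (-0.81 ± 0.55, adjusted p = 0.301) unless the 2 groups were fitted alone with the donor as a replicate block (adjusted p = 0.0313).

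**Figure D4:**
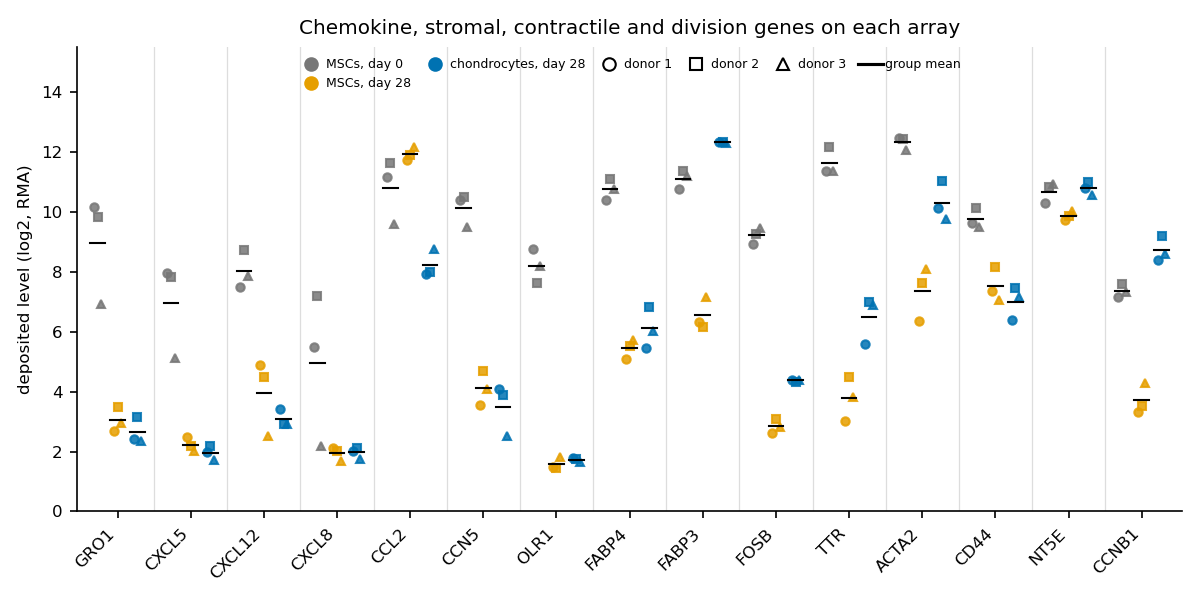
Deposited log2 level of 15 chemokine, stromal, contractile and division genes on each of 9 arrays, with groups by colour, donors by marker shape and group means as short lines. GRO1, CXCL5 and CXCL8 of day 0 MSCs are lowest in donor 3, and FABP3 and CCNB1 are highest in chondrocytes.

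Contractile genes were lower: 16 of 25 fell and none was called higher by limma (0 higher and 17 lower at an unadjusted p under 0.05), with a median of -0.95. LMOD1, which nucleates actin filaments in smooth muscle, stood at 7.68, 7.82 and 7.46 in MSCs and at 4.30, 4.29 and 3.99 in chondrocytes (-3.46 ± 0.15). The tropomyosin TPM2 fell by 3.03 and the actin-binding protein CNN2 by 2.24. ACTA2, smooth muscle actin, was at 12.46, 12.44 and 12.08 against 10.12, 11.02 and 9.76 (-2.02 ± 0.44, adjusted p = 0.00784), so that it was still a bright gene in the chondrocytes. ACTN4 (0.04 ± 0.21) and TPM4 (-0.24 ± 0.14) were not called.

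Immediate early genes, which respond within minutes to stimuli and many of which encode transcription factors, had 6 lower and 1 higher of 18 (median -0.38). FOSB was at 8.91, 9.27 and 9.45 in MSCs and at 4.40, 4.33 and 4.40 in chondrocytes (-4.83 ± 0.18, adjusted p = 5.62e-07). ATF3 fell by 2.44 and NR4A1 by 1.74. FOS (-0.39 ± 0.37), a relative of FOSB, and JUN (-0.43 ± 0.30), a partner of FOSB, overlapped between groups and were not called. CCN1, the single member that rose, did so by 1.36 ± 0.20. Of the 3 measured genes of the CCN matricellular family, to which CCN1 also belongs, CCN1 was higher and CCN5 lower.

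Genes of lipid handling differed in both directions, with 8 higher and 3 lower of 25 (median 0.03, or -0.09 when centred on the array median). FABP4, the fatty acid carrier of fat cells and macrophages, stood at 10.41, 11.09 and 10.75 in MSCs and at 5.47, 6.83 and 6.02 in chondrocytes (-4.64 ± 0.33). FABP3, the carrier of heart and muscle, was bright in both, at 10.75, 11.37 and 11.18 against 12.35, 12.33 and 12.29 (1.22 ± 0.26, adjusted p = 0.00683). That rise of FABP3 was not called without donor 1 (1.04, adjusted p = 0.105), and the day 28 MSCs averaged only 6.56. The lipase LPL rose by 3.79 ± 0.36, the fatty acid synthase FASN by 1.48 ± 0.23 and DGAT1, which makes triglyceride, by 1.49 ± 0.21.

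Serpins and secreted carriers had 6 higher and 2 lower of 12 (median 0.96). TTR, a carrier of thyroid hormone, was at 11.35, 12.18 and 11.36 in MSCs and averaged 6.50 ± 0.78 (SD, n = 3) in chondrocytes (-5.13 ± 0.46), and SERPINF1, which inhibits vessel growth, fell by 2.57. The retinoid carriers RBP4 and CRABP2 rose by 3.55 ± 0.27 and 3.42 ± 0.30. Complement genes had 4 higher and 6 lower of 20 (median 0.12), near the shares over all genes (15.1% higher and 20.9% lower). CFI, the protease that inactivates complement, rose by 5.59 ± 0.45 and the terminal component C5 by 3.50 ± 0.28. The early components C2 and C1S fell by 4.46 and 2.52, and CD55, a membrane regulator that protects cells, fell by 3.89.

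Of 27 mitosis genes 19 were higher and none lower, with a median of 1.36 (25 and 0 at an unadjusted p under 0.05). CCNB1, the cyclin of mitosis entry, picked after its values were seen, was at 7.14, 7.60 and 7.33 in MSCs and at 8.38, 9.18 and 8.60 in chondrocytes (1.36 ± 0.29). The checkpoint kinase BUB1 was at 6.25, 6.48 and 6.28 against 8.08, 8.26 and 8.51 (1.95 ± 0.44), a call that ended without donor 2 at nearly the same difference (2.03, adjusted p = 0.0882). In each of these the groups did not overlap, as in 53.9% of all genes, and the differences were smaller than those of COL2A1, ACAN and COMP. Of 28 genes of DNA replication 19 were higher and none lower (median 0.66, or 22 and 0 at an unadjusted p under 0.05), among them CDC6, which licenses origins, by 1.61 ± 0.21. That count was 10 without chondrocyte replicate 2, 12 without chondrocyte replicate 3 and 11 without MSC replicate 1 or MSC replicate 3. A list of cell cycle brakes also held D-type cyclins, which promote the cycle, and had 4 higher and 2 lower of 12 (median 0.42). Its counts therefore do not describe brakes alone. The inhibitor CDKN1C rose by 2.84 ± 0.31, while of the cyclins CCND3 rose by 1.98 ± 0.20 and CCND1 fell by 1.48.

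Genes of glycolysis and the response to low oxygen were higher in 14 and lower in 2 of 26 cases (median 0.49). SLC2A1, the glucose transporter of many cell types, was at 8.45, 8.48 and 8.64 in MSCs and at 11.18, 11.12 and 11.22 in chondrocytes (2.65 ± 0.12, adjusted p = 1.39e-06). EGLN3, an oxygen-sensing hydroxylase, rose by 4.77 ± 0.52, the aldolase ALDOC by 2.44 ± 0.26 and the vessel growth factor VEGFA by 1.85 ± 0.26. EPAS1, an oxygen-regulated transcription factor, fell by 2.62, and HIF1A was not called (0.34 ± 0.12, adjusted p = 0.0621). Cyclic loess, array weights, a trended robust variance and centring on ribosomal protein genes each brought HIF1A below the threshold, at 0.34 to 0.59. LDHA and GAPDH, at the end and the middle of the pathway, were called only after that centring (0.59 and 0.62). When any array but MSC replicate 2 was left out, 1 gene of the list was lower in place of 2.

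By their brightest probe sets, subunits of oxidative phosphorylation were lower in 22 and higher in none of 38 cases (median -0.59), a pattern of many small differences. At an unadjusted p under 0.05 29 were lower and 0 higher. Dimmer probe sets of COX6C (3.09), ATP5F1D (2.01) and UQCRC2 (1.84) were called higher, and a dimmer set of NDUFA5 (-1.02) was called lower. SDHB, of complex II, was at 10.44, 10.28 and 10.26 against 9.25, 9.47 and 9.26, and NDUFB3, of complex I, at 11.29, 11.33 and 11.16 against 10.30, 10.30 and 10.34 (-0.95 ± 0.12). Both separated the groups with little spread among donors. How many fell depended on the scaling: 7 with arrays set to their ribosomal protein genes and 30 with arrays set to their median. Of 44 ribosomal protein genes 5 were lower and 1 higher (median -0.20, or 0.05 when centred on these genes). Without chondrocyte replicate 1, chondrocyte replicate 3 or MSC replicate 1 none was lower, without chondrocyte replicate 2 or MSC replicate 2 only 1 was, and without MSC replicate 3 there were 3.

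**Figure D5:**
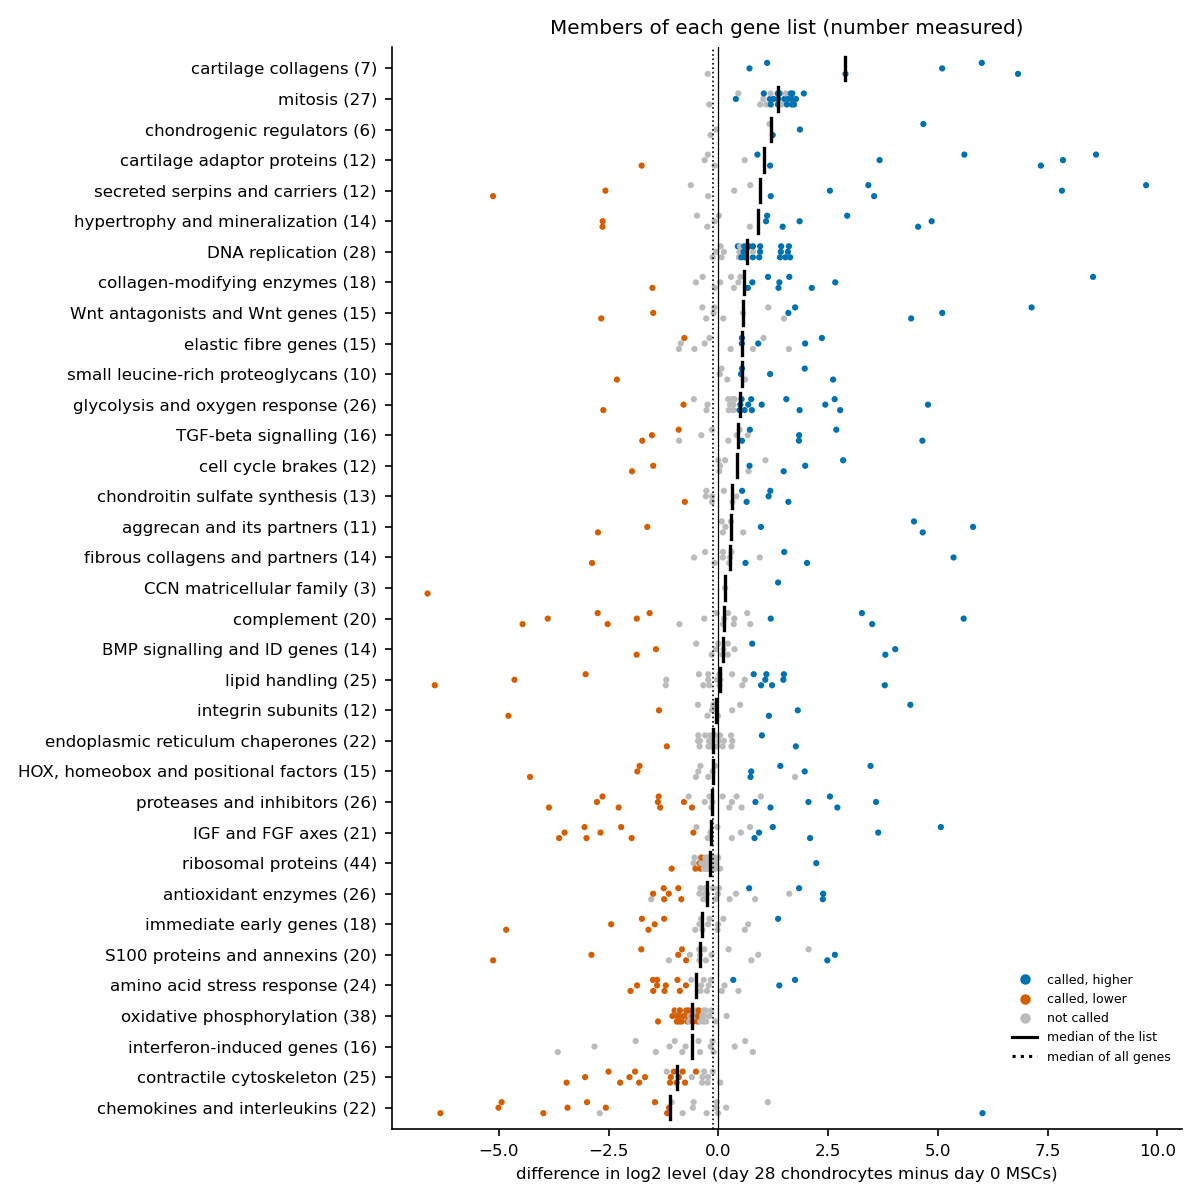
Difference in log2 level (chondrocytes minus day 0 MSCs) of the members of 35 gene lists, with the number of genes measured in brackets. Points are genes coloured by call, bars mark the median of each list and the dotted line the median of all genes (-0.12), with cartilage collagens (2.89) at the top and chemokines and interleukins (-1.09) at the bottom.

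The amino acid stress response, which supplies amino acids when they are scarce, had 11 lower and 3 higher of 24 (median -0.51). ALDH1L2 of mitochondrial folate metabolism fell by 1.85, PSPH of serine synthesis by 1.49 and the stress protein NUPR1 by 1.48. Its central factor ATF4 was not called (-0.26 ± 0.14). DDIT4 rose by 1.75 ± 0.23, and it was 1 of the 3 that were higher, a count that fell to 1 when any array but MSC replicate 2 was left out. Of 22 endoplasmic reticulum chaperones 2 were higher and 1 lower (median -0.12, or 0.13 when centred on ribosomal protein genes). The 1 lower was lost when any single array was left out, and only 1 was higher without chondrocyte replicates 1 or 3 or MSC replicates 1 or 3. Of 26 antioxidant enzymes 4 were higher and 6 lower (median -0.27), near the shares over all genes (15.1% higher and 20.9% lower). Extracellular GPX3 was up by 2.39 ± 0.40 and GPX4, which protects membranes, down by 1.13 on the log2 scale (-1.13 ± 0.14).

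Proteases and inhibitors had 6 higher and 9 lower of 26 (median -0.15, or 0.10 when centred on ribosomal protein genes). ADAMTS5, which cuts aggrecan, was at 4.95, 5.71 and 6.44 in MSCs and at 3.39, 2.83 and 2.59 in chondrocytes (-2.77 ± 0.36). ADAMTS4, the other main aggrecanase, went the opposite way, at 2.84, 4.61 and 4.61 against 5.66, 6.44 and 7.57 (2.54 ± 0.70, adjusted p = 0.0219). That call ended without chondrocyte replicate 2 (2.60, adjusted p = 0.0519), chondrocyte replicate 3 (2.04, adjusted p = 0.0769) or MSC replicate 1 (1.95, adjusted p = 0.0777). The urokinase receptor PLAUR rose by 3.59 ± 0.23, while TIMP1, TIMP2 and MMP2, bright in all groups, were not called. The number lower was 5 without chondrocyte replicate 1.

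Integrin subunits, the receptors by which cells hold matrix, had 3 higher and 2 lower of 12 (median -0.06, or 0.19 when centred on ribosomal protein genes). That count was near the shares over all genes (15.1% higher and 20.9% lower). ITGA10, which binds type II collagen, stood at 5.50, 7.28 and 6.86 in MSCs and at 10.89, 10.88 and 10.99 in chondrocytes (4.37 ± 0.38). ITGA3, a laminin receptor subunit, was at 8.19, 7.63 and 7.63 against 3.19, 3.05 and 2.87 (-4.78 ± 0.25). Their partner ITGB1 was not called (-0.25 ± 0.14). S100 proteins and annexins had 2 higher and 6 lower of 20 (median -0.42). S100B, a chondrocyte S100 protein, rose by 2.48 ± 0.16, S100A4, common in fibroblasts, fell by 1.76 and ANXA3 fell by 5.13. Without MSC replicate 2, 4 were higher.

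HOX and other positional factors, which keep a memory of where in the body a cell came from, had 5 higher and 3 lower of 15 (median -0.13, or 0.12 when centred on ribosomal protein genes). HOXA4 was at 5.85, 5.30 and 6.13 in MSCs and at 9.24, 9.16 and 9.27 in chondrocytes (3.47 ± 0.24). MEIS2, a HOX cofactor, was at 7.41, 6.79 and 6.91 against 2.63, 3.08 and 2.52 (-4.29 ± 0.26), with a second probe set at -0.29 that was not called. Its relative MEIS1 rose by 1.97 ± 0.26.

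Interferon-induced genes gave no call over all arrays, with 0 of 16 called by limma at a median of -0.60 and 2 lower at an unadjusted p under 0.05. IFI6 was at 7.66, 8.98 and 8.79 in MSCs and at 6.85, 6.42 and 7.89 in chondrocytes (-1.42 ± 1.24). On the day 28 MSC array of donor 3, which enters the estimate of the spread, IFI6 was at 11.95. With only the 6 arrays compared in the fit 5 of these genes were called lower, 7 with the donor block added, and 6 when that array and chondrocyte replicate 3, the 2 with low hybridisation controls, were left out. Without all arrays of donor 3, 3 were called lower.

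The labelled cell types were checked by their markers. Of 8 chondrocyte markers 7 were higher in the chondrocytes, with a mean level of 10.18 to 10.31 on the chondrocyte arrays and 4.80 to 5.14 on the day 0 MSC arrays. MATN1 was the exception. The day 28 MSC arrays had mean levels of 9.55 to 10.00 for these markers. Of 16 marrow stromal markers 4 were lower and 1 higher, at mean levels of 5.54 to 5.74 in chondrocytes and 6.24 to 6.77 in MSCs. Over all genes 20.9% were lower and 15.1% higher, so the count of stromal markers was near the background. NT5E, the surface enzyme CD73 used to define MSCs, was at 10.28, 10.82 and 10.93 in MSCs and at 10.81, 10.98 and 10.58 in chondrocytes. The groups overlapped, and neither NT5E (0.11 ± 0.20) nor THY1, the marker CD90 (0.12 ± 0.18), was called. ALCAM fell by 2.21, and CXCL12 and CD44 fell as given above.

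Markers of other cell types were counted in the same way. The shares over all genes were 15.1% higher and 20.9% lower. Of 18 blood cell markers 2 were higher and 5 lower, at mean levels of 3.68 to 3.72 in chondrocytes and 3.48 to 4.29 in MSCs. CSF1R, the receptor for a macrophage growth factor, rose by 3.23 ± 0.38, from 4.42, 4.96 and 3.78 to 8.17, 7.69 and 6.97. The other marker that rose was the monocyte and macrophage gene CD14, by 2.67 ± 0.69, with its second probe set also called, at 2.25. CTSS, a lysosomal protease of macrophages, was 1 of the 5 lower and fell by 2.27, and the lowest difference in the list was -2.52. FCGR1A and GPNMB, outside this list and among the 12 largest falls, stood at -5.12 and -4.94. The globins HBA and HBB and the lymphocyte genes CD3E and CD79A were below 2.58, the 25th percentile of probe set means, on all 6 arrays, and the leukocyte gene PTPRC averaged 2.25 in chondrocytes and 2.49 in MSCs. The count of 5 lower was 3 without chondrocyte replicate 1, MSC replicate 1 or MSC replicate 2, and 2 without chondrocyte replicate 2, where 1 was higher. Of 10 adipocyte markers 2 were higher and 2 lower, at mean levels of 3.72 to 3.93 in chondrocytes and 4.16 to 4.53 in MSCs. The 2 higher were LPL (3.79) and LIPE (0.80 ± 0.23), whose other probe sets were not called. FABP4 (-4.64), bright in MSCs as given above, was 1 of the 2 lower. ADIPOQ and LEP were below 2.58 on all 6 arrays. The number of adipocyte markers higher was 1 without chondrocyte replicates 1 or 2 or MSC replicates 1 or 2. Of 7 osteoblast markers DLX5 (1.41 ± 0.25) and ALPL were higher, at mean levels of 7.72 to 8.45 in chondrocytes and 7.19 to 7.53 in MSCs, above the median probe set. SPP1 and IBSP were bright in both groups by the sets used and not called. A second IBSP probe set averaged 6.65 in chondrocytes and 4.59 in MSCs and was not called either (2.07 ± 1.36). Of 12 endothelial markers 3 were higher, led by TEK (2.19 ± 0.29), at 3.85 to 4.11 against 3.59 to 3.70, with CDH5 and KDR below 2.58, and 1 was lower without chondrocyte replicate 3. Of 16 skeletal muscle genes 3 were higher and 2 lower, and of 7 tendon and synovium genes 1 was higher and 1 lower. PRG4, among the latter, was counted by its brightest probe set, which was not called. Without chondrocyte replicate 1 or MSC replicate 1 the number of muscle genes lower was 1, and it was 0 without any of the other 4 arrays, with cyclic loess, or with arrays set to their ribosomal protein genes. Skeletal muscle genes had mean levels of 4.39 to 4.52 in chondrocytes and 4.21 to 4.32 in MSCs. Bright members were among them: MYH7 averaged 11.86 in chondrocytes and 10.10 in MSCs (1.76 ± 0.16), and CKM 10.83 and 11.35 (-0.53 ± 0.17). Other probe sets of these genes were dimmer, at 5.35 and 2.84 for MYH7 and 2.14 for CKM in chondrocytes. Tendon and synovium genes had mean levels of 5.41 to 5.69 in chondrocytes and 5.66 to 6.15 in MSCs. The part of other cells in the results was not tested.

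Set beside the day 28 MSCs, the genes above fell into different patterns. The comparison of chondrocytes with day 28 MSCs shares the chondrocyte arrays with the one described here, and called 1204 of 9155 genes (13.2%). For COMP the difference from day 28 MSCs was 0.10 ± 0.18, for COL2A1 0.04 ± 0.33 and for ACAN -0.19 ± 0.40. None of these was called, beside 8.60, 6.00 and 5.80 from day 0 MSCs. COL2A1 was the brightest probe set on every array of both day 28 groups, which limits the difference that can be read. For SERPINA14 it was 7.79 ± 0.35 (adjusted p = 5.59e-06), for THBS4 5.02 ± 0.32 and for CNMD 3.93 ± 0.35, beside 7.83, 7.35 and 5.60. BMP5 differed by 3.89 ± 0.28 from day 28 MSCs and by 3.80 from day 0 MSCs, so that its level was low in MSCs at both times. CCNB1 differed by 5.01 ± 0.29 and FABP3 by 5.76 ± 0.26 from day 28 MSCs, beside 1.36 and 1.22. For CCL2, picked after its values were seen, chondrocytes were below both, by -3.70 ± 0.46 and -2.56 ± 0.46, and the second of these calls ended without donor 1 (-2.23, adjusted p = 0.0815).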

How the data were processed

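Bovine expression arrays of 1 colour were hybridised with RNA of 9 samples. Per the labels' protocols cDNA was primed with poly(T), amplified linearly and labelled with biotin, which favours 3′ ends. The deposited values are log2 levels made with RMA (background correction, quantile normalization, probe summary), per the submitters' processing notes. The RMA version is not given in the sources used here. This scaling hides a shift of most transcripts in 1 direction.

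Of 24128 probe sets 112 controls were left out. Symbols came from the platform annotation (13292 probe sets with 1, 86 with several, 10638 with none), and 13283 matched the RefSeq table of ARS-UCD2.0. Of the probe sets without a single symbol 2980 of 10724 were called and are not named. A gene is its probe set of highest mean over 9 arrays, and 2913 genes had several. limma 3.58.1 (R 4.3.3; lmFit, eBayes) was fitted to all 9 arrays with 3 group means, which left 6 residual degrees of freedom, with Benjamini-Hochberg adjustment of p-values over the 24016 probe sets. The code was tested on simulated data. The number of arrays limits the precision. The p-values rest on the spread within the 3 groups, pooled over all 9 arrays, the day 28 MSCs included. With 1 array per calf in each group, differences among calves, cultures and arrays cannot be told apart in that spread.

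The donor number marks the same calf in each group. Deviations from the group means of same-donor arrays correlated weakly across probe sets, at 0.140, 0.108 and 0.143. Different-donor pairs of the 2 groups ran from -0.10 to -0.03. Day 28 MSCs of donor 1 and chondrocytes of donor 2 reached 0.152, so the pairing rests on the labels. The model without the donor gave the results, and the donor block was an alternative. Members, gene lists, tests and the rule for names were chosen with earlier results of these data known. The rule named the 12 largest rises and falls called with 1 direction in all donors (no LOC symbols), in each of 43 lists up to 4 called members per direction and up to 4 not called of highest mean, 16 fixed genes and all markers. The alternatives were scalings, signal filters, variance models, array weights, left-out arrays or donors, the low-control arrays, 2 groups alone and other probe sets per gene.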

Additional observations from a re-analysis of the deposited data

How the results depend on the processing

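Over 22 alternatives the numbers of called probe sets and genes stayed within 1.5 times the main counts, apart from the following. Centring on ribosomal protein genes left 2217 probe sets and 1090 genes lower. Without replicate 1 in every group 3344 probe sets (1866 higher, 1478 lower) and 1472 genes (732 and 740) were called, and without replicate 2 in every group 4963 probe sets (2311 lower) and 2137 genes (1167 lower), with fewer arrays in each fit. Without any single array the counts ran from 5640 to 6521 probe sets and from 2466 to 2843 genes. With the donor as a replicate block 8247 probe sets and 3652 genes were called, and with 2 groups alone and the block, chosen after seeing the data, 7586 and 3331. Among 706 genes of the lists and named genes the block turned no direction, with 36 calls gained and 4 lost.

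Among these 706 genes called directions turned only with another probe set per gene. With the mean of the probe sets the values were COX6C 1.11, FGF1 0.12, NR4A2 0.30, UQCRC2 0.68 and VCL 0.73, and with the set of largest SD COX6C 3.09, FGF1 2.82, NR4A2 2.56, RFC5 -0.43, UQCRC2 1.84 and VCL 2.56. Probe sets of 1 gene were called in both directions in 62 of 2913 genes. The cause was not tested. Levels near the floor of the scale and COL2A1 at its top limit what differences can be read.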

Other observations

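Several genes outside the lists were among those with large differences, and were picked after their values were seen. The prostaglandin enzymes were higher in chondrocytes: PTGS2, the inducible cyclooxygenase, stood at 4.29, 3.18 and 2.21 in day 0 MSCs and at 10.34, 9.19 and 10.31 in chondrocytes (6.72 ± 0.70 by limma, n = 3 arrays per group), and PTGES, the prostaglandin E synthase, at 6.59, 6.32 and 5.80 against 11.72, 11.12 and 11.18 (5.11 ± 0.24). The receptor PTGER4 was at 7.93, 7.38 and 7.61 against 2.73, 2.82 and 2.73 (-4.88 ± 0.25), so that synthesis genes and this receptor gene moved in opposite directions.

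A further set was low in MSCs at both times and high in chondrocytes, which is how it was picked, so that its pattern is a description. GAL, a neuropeptide, was at 2.31, 1.95 and 1.91 in day 0 MSCs, at 1.89, 1.48 and 2.19 in day 28 MSCs and at 7.96, 9.02 and 6.88 in chondrocytes. TKTL1, a relative of transketolase, averaged 1.88, 2.07 and 7.34 in these groups, LBP, which binds bacterial lipopolysaccharide, 3.36, 4.15 and 8.45, and CPE, which trims peptide hormones, 1.97, 2.30 and 6.88. The opposite was seen for IL18, an interleukin, at 8.17, 9.71 and 8.04 in day 0 MSCs, 6.92, 7.35 and 7.51 in day 28 MSCs and 4.58, 5.35 and 4.80 in chondrocytes. In each of these 5 genes the chondrocyte arrays did not overlap either MSC group, which follows from how they were picked. Between chondrocytes and day 0 MSCs alone, 53.9% of all genes did not overlap.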
